A study of Caenorhabditis elegans with 20 samples.

Results

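The genes described here are the MATH and BTB domain genes of *C. elegans*, defined as every gene whose WormBase symbol starts with math-, bath- or btb-. The deposited tables hold 89 of them among 27375 genes, namely 37 math-, 36 bath- and 16 btb- genes, and all 89 are annotated as protein-coding. A further gene with such a symbol, *btb-22*, was not analysed here. RNA came from whole hermaphrodites at the L4 stage, grown at 20 °C in air, with 4 biological replicate libraries per genotype. Of the 4 genotypes used, *egl-9(sa307)* is a null mutant for the HIF-1 prolyl hydroxylase, whose action leads to HIF-1 degradation, so its own HIF-1 is active in air. The strain OR3350 carries *egl-9(sa307)* together with *unc-119(ed3)* and *hif-1(ia4)*, and its active HIF-1 comes from *odIs131[hif-1::gfp, unc-119(+)]*, a genomic fosmid integrated by bombardment in 1 line. Animals with *egl-9(sa307)* and *hif-1(ia4)* but no transgene, labelled *egl-9 hif-1* in the plots, are called the double mutant, and wild type is the N2 strain. HIF-1 is therefore active in *egl-9* and OR3350, and inactive in the double mutant and wild type. Single *hif-1(ia4)* mutants were sequenced too but are in none of the tables used here.

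BTB domains let a protein dock onto the cullin CUL-3, and MATH domains bind the protein that is to be ubiquitinated. A protein with both domains, the type encoded by bath- genes, can thus serve as the adaptor that brings a substrate to a CUL-3 ubiquitin ligase. MEL-26, which does this for the microtubule-severing katanin MEI-1 after meiosis, is the best-known worm example, although its gene carries another name. Genes of the math- class encode proteins named for the MATH domain and those of the btb- class proteins named for the BTB domain. In *C. elegans* these classes, like the F-box genes, have grown by tandem duplication and diverge rapidly, and few members have a known substrate. HIF-1 is itself controlled by a cullin ligase, but a different one, which holds the von Hippel-Lindau protein and CUL-2.

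Each value below, unless a z test is named, is the authors' edgeR estimate from the deposited tables, given as a log2 fold change with an approximate standard error (SE). For that SE the log2 fold change, taken without sign, was divided by the root of the likelihood ratio statistic. A gene was called at an FDR under 0.01, the Benjamini-Hochberg adjusted p of the likelihood ratio test over all 27375 genes. No library's own values were used here, so no spread between libraries and no depth is given. To check genotypes, *hif-1* itself was examined: its transcript, of which *hif-1(ia4)* removes only a part, was 2.11 higher (log2) in *egl-9* than in the double mutant (edgeR FDR 1.2e-73) and 1.68 higher in OR3350 than in the double mutant (FDR 3.5e-47). Median log2 fold changes over genes at or above a mean log2 CPM of 0 lay within 0.03 of 0 in all 4 tables. The 4 tables share genotypes with each other, and only 2 pairs of them have none in common: *egl-9* against the double mutant with OR3350 against wild type, and *egl-9* against wild type with OR3350 against the double mutant.

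The family sits mostly in one region of the genome. Of the 89 genes, 76 (85.4%) lie on chromosome II, which holds 15.8% of the 26866 genes that could be placed on WBcel235, the assembly behind the WS245 release used by the authors. Chromosomes I, III, IV and V hold 5, 4, 1 and 3 members. On chromosome II, 69 members lie between 1023693 (*btb-11*) and 3733181 (*bath-31*), a stretch of 2.71 Mb that includes 35 of the 37 math- genes, 23 of the 36 bath- genes and 11 of the 16 btb- genes. Neighbours are often close: 64 members lie within 10 kb of another member, and the median distance to the nearest one is 888 bp. Predicted proteins have a median of 383 residues for math-, 308 for bath- and 298 for btb- genes, with a range of 105 to 1138 over the family.

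Expression differed widely within the family. The mean log2 CPM over all libraries of the fit was at least 0 for 51 members (57.3%), against 51.3% of all genes. By class this held for 15 math-, 27 bath- and 9 btb- genes. Members of the chromosome II stretch had a median mean log2 CPM of 0.13 (69 genes), against 3.70 for the 20 members elsewhere. Per kilobase of exon, the highest mean log2 CPM were those of *bath-42* (5.96), *bath-40* (5.92), *math-33* (5.92), *bath-44* (5.38) and *bath-41* (4.97), and all 5 lie outside that stretch. For the 38 members with a mean log2 CPM below 0 the approximate SE in *egl-9* against wild type had a median of 0.70, against 0.17 for the others. A change in a low member therefore had to be larger to be called.

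More members were higher than lower in *egl-9* against wild type, and most of those that rose were bath- or btb- genes. In *egl-9* against wild type, 19 of 89 members (21.3%) were called higher, against 9.81% of all genes, and 8 members (8.99%) were called lower, against 9.62% of all genes. The 19 were 10 of 36 bath-, 7 of 16 btb- and 2 of 37 math- genes. No bath- gene was called lower in any of the 4 tables (edgeR, with 0 lower at an unadjusted p under 0.05 in each table), and the 8 that fell were 5 math- and 3 btb- genes. Median log2 fold changes in *egl-9* against wild type were 1.13 for btb-, 0.31 for bath- and -0.13 for math- genes, beside 0.00 for all genes. Of the 16 btb- genes, 7 had a mean log2 CPM below 0. These 7 held the largest btb- rises (*btb-11* 4.34, *btb-8* 4.23, *btb-5* 3.61), and only *btb-18* among them fell (-1.49). The other 9 lay between -0.74 (*btb-2*) and 1.99 (*btb-16*), with *btb-4* in the middle at 0.21. The btb- median thus depends on weakly expressed genes, which enter it in every table. The bath- medians stayed close to that value in the other tables, at 0.34 in *egl-9* against the double mutant, 0.32 in OR3350 against wild type and 0.27 in OR3350 against the double mutant. The btb- medians were 0.49, 0.99 and 0.07 in the same order of tables, and the math- medians were -0.08, -0.30 and -0.11.

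**Figure D1:**
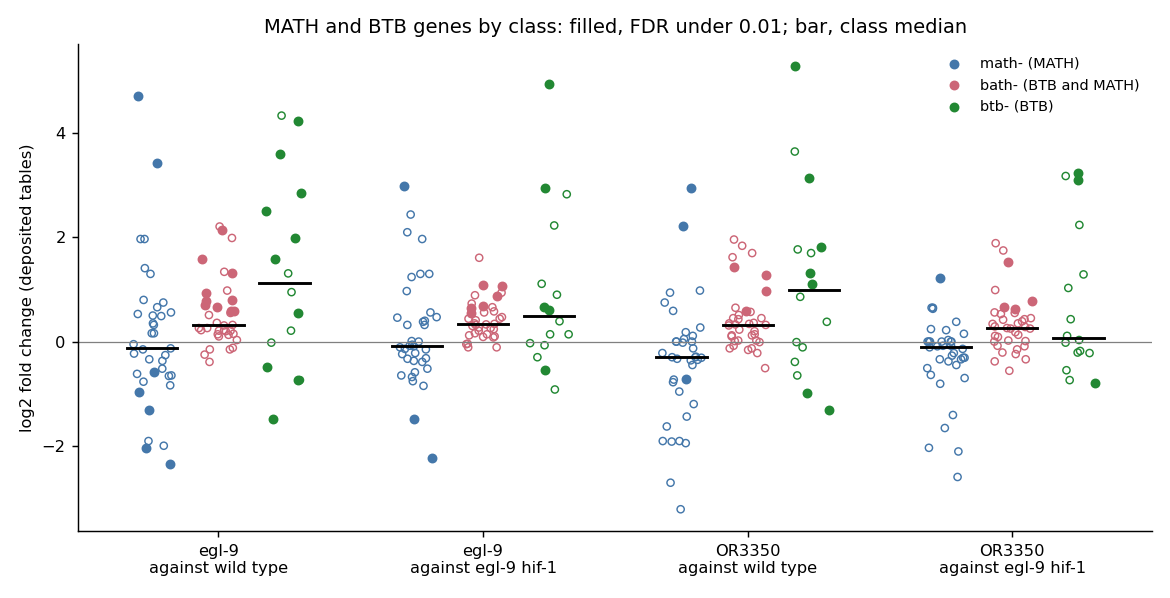
Log2 fold change of each of the 89 members in the 4 deposited comparisons, split into math-, bath- and btb- genes. Filled points passed an FDR under 0.01, and black bars are class medians, which in *egl-9* against wild type stand at -0.13, 0.31 and 1.13. Of the 16 btb- genes, 7 had a mean log2 CPM below 0, and the largest btb- rises in that comparison are among them.

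The other tables held fewer calls, most of them rises. Against the double mutant, *egl-9* had 11 members higher (12.4%, against 5.57% of all genes) and 3 lower (3.37%, against 4.19% of all genes). In OR3350 against wild type, 11 members were higher (12.4%, against 5.07% of all genes) and 3 lower (3.37%, against 7.34%). In OR3350 against the double mutant, 7 members were higher (7.87%, against 5.72%) and 1 lower (1.12%, against 6.24%). Among the 794 other genes of the same chromosome II stretch, the shares in *egl-9* were 8.44% higher and 10.2% lower relative to wild type, with 4.79% higher and 3.78% lower relative to the double mutant. No member was called in opposite directions in any pair of tables. Altogether 32 members were called in at least 1 table and 57 in none. The share of all genes called in at least 1 table is not given here, so these counts stand without a background.

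**Figure D2:**
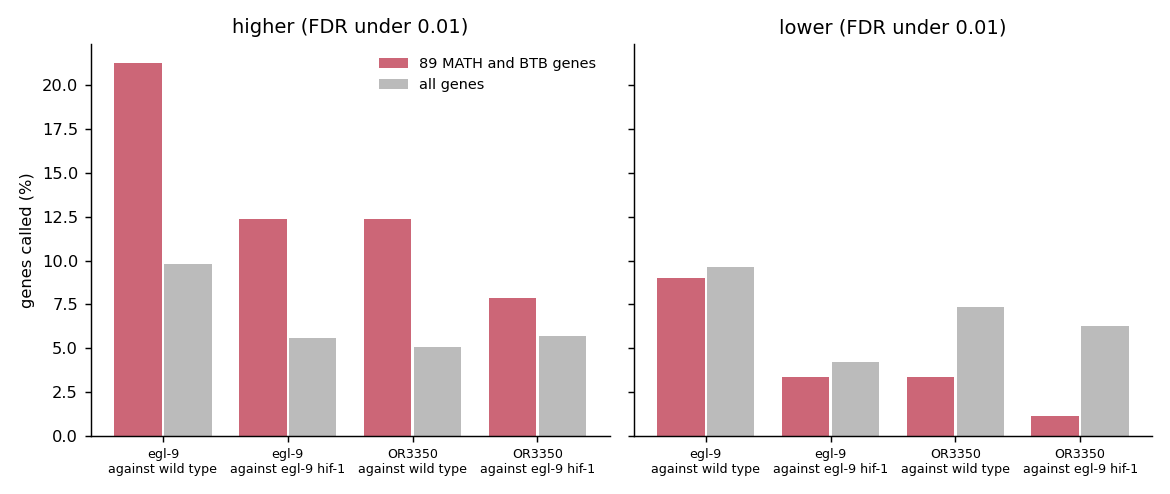
Share of the 89 members and of all 27375 genes called higher (left) or lower (right) at an FDR under 0.01, in percent, for each deposited comparison. For rises the members' bar is taller, from 21.3% beside 9.81% in *egl-9* against wild type to 7.87% beside 5.72% in OR3350 against the double mutant. For falls it is shorter, but close to all genes in *egl-9* against wild type (8.99% beside 9.62%) and against the double mutant (3.37% beside 4.19%).

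A few members were called higher in both tables of a pair that shares no genotype. In the pair *egl-9* against the double mutant and OR3350 against wild type, 5 members were called higher in both (*math-45*, *btb-6*, *bath-13*, *bath-47* and *btb-16*), and 2.58% of all genes were. In the pair formed by *egl-9* against wild type with OR3350 against the double mutant, 4 members were called higher in both (*math-45*, *btb-5*, *btb-6* and *bath-13*), and 2.25% of all genes were. *btb-2* was the only member lower in both tables of either pair, beside 2.22% and 2.62% of all genes.

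*math-45* gave the largest rise of the family in *egl-9* over wild type. It lies on chromosome II from 1510287 to 1517454 (minus strand) and encodes a protein of 530 residues. In *egl-9* it stood 4.71 ± 0.34 (SE) above wild type on the log2 scale (26.3-fold, edgeR FDR 2.4e-41) and 2.99 ± 0.25 above the double mutant (FDR 2.4e-30). In OR3350 it was 2.95 ± 0.40 above wild type (FDR 3.0e-11) and 1.23 ± 0.29 above the double mutant (FDR 4.9e-04). The difference that these values leave between the double mutant and wild type was 1.72 ± 0.33 (approximate z test, adjusted p = 8.2e-06), so *math-45* was also higher in the double mutant, which lacks HIF-1. Its mean log2 CPM was -0.17.

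*btb-5* and *btb-6* also rose by large factors from low levels. *btb-5*, near the left end of chromosome III (59869 to 61145, minus strand), was 4.95 ± 0.57 higher (log2) in *egl-9* than in the double mutant (30.8-fold, edgeR FDR 2.7e-16) and 3.61 ± 0.54 higher than in wild type (FDR 6.9e-10). In OR3350 it was 3.11 ± 0.66 above the double mutant (FDR 6.3e-05), whereas its 1.77 ± 0.63 against wild type did not pass (FDR 0.0307). *btb-6*, on chromosome II from 1715303 to 1716497, had nearly the same value in every table, at 2.85, 2.95, 3.15 and 3.24 for *egl-9* against wild type, *egl-9* against the double mutant, OR3350 against wild type and OR3350 against the double mutant. Its approximate SE was 0.70 to 0.71, and its FDR lay between 9.5e-05 and 4.7e-04 (edgeR). The difference for *btb-6* between the double mutant and wild type was -0.10 ± 0.71 (approximate z test, adjusted p listed as 1). At a mean log2 CPM of -1.72 for *btb-5* and -0.21 for *btb-6*, the sizes of these folds depend on the authors' handling of low counts.

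*bath-13* and *bath-47*, which encode BTB and MATH proteins, moved by smaller amounts. *bath-13* (chromosome II, 2520842 to 2522060) was 1.59 ± 0.23 higher (log2) in *egl-9* than in wild type (edgeR FDR 1.1e-10) and 1.08 ± 0.20 higher than in the double mutant (FDR 2.5e-06). In OR3350 it was 1.28 ± 0.24 above wild type (FDR 4.0e-06) and 0.77 ± 0.22 above the double mutant (FDR 0.00418). *bath-47* (chromosome II, 1601811 to 1604621), the longest bath- protein at 706 residues, was 1.53 ± 0.24 higher in OR3350 than in the double mutant (FDR 2.3e-08) and 0.98 ± 0.25 higher than in wild type (FDR 8.3e-04). In *egl-9*, *bath-47* was 1.06 ± 0.24 above the double mutant (FDR 2.0e-04) and did not pass against wild type, at 0.51 ± 0.24 (FDR 0.105). Its last 22 bases overlap *bath-33* on the other strand.

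*btb-2* ran the other way. This gene (chromosome II, 6401949 to 6403105) was lower on the log2 scale by 0.74 ± 0.15 in *egl-9* against wild type (log2 fold change -0.74, edgeR FDR 1.2e-05) and stood at -0.55 ± 0.15 against the double mutant (FDR 0.00306). In OR3350 it was at -0.99 ± 0.15 against wild type (FDR 6.8e-09) and at -0.80 ± 0.15 against the double mutant (FDR 5.0e-06).

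**Figure D3:**
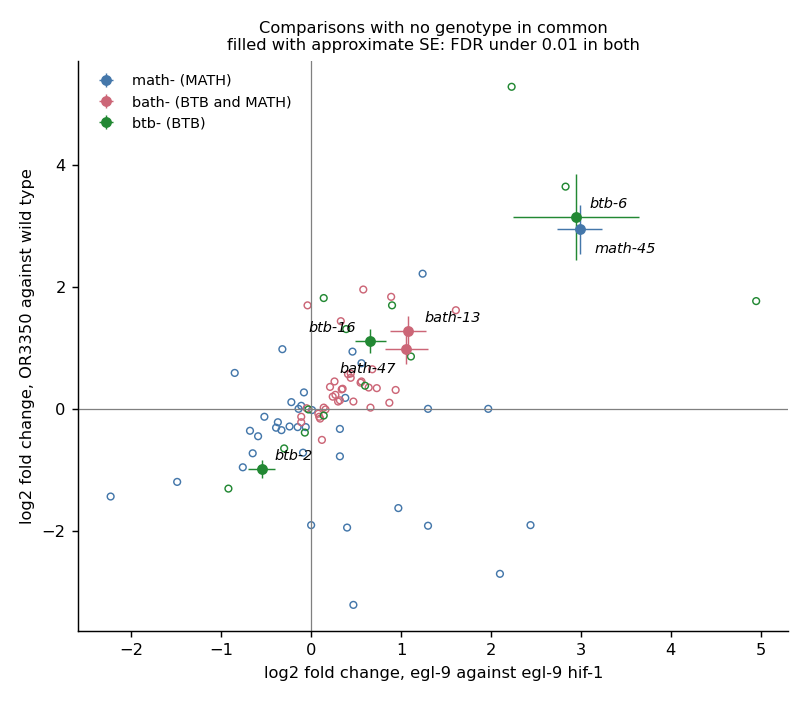
Log2 fold change of each member in *egl-9* against the double mutant (horizontal) and in OR3350 against wild type (vertical), which share no genotype. The 6 filled and named genes, shown with approximate SE, passed an FDR under 0.01 in both: 5 rose and *btb-2* fell.

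For 3 members the level was lower in OR3350, with the HIF-1::GFP transgene, than in *egl-9*, with the endogenous gene. *bath-44* (chromosome II, 7394955 to 7397351) was 0.79 ± 0.11 higher (log2) in *egl-9* than in wild type (edgeR FDR 1.4e-11) and 0.87 ± 0.11 higher than in the double mutant (FDR 5.8e-14). In OR3350 it was at 0.10 ± 0.11 against wild type (FDR 0.599) and at 0.18 ± 0.11 against the double mutant (FDR 0.263). The difference between OR3350 and *egl-9*, formed from the deposited fold changes, was -0.68 ± 0.11 for *bath-44* (approximate z test, adjusted p = 3.4e-08). The same difference was -1.76 ± 0.33 for *math-45* (adjusted p = 6.6e-06) and -0.88 ± 0.19 for *btb-16* (adjusted p = 1.8e-04). For *btb-5* it was -1.84 ± 0.60 and did not pass (adjusted p = 0.0384). No member was higher in OR3350 than in *egl-9* by this test, against 1.44% of all genes, with 3 members at an unadjusted p under 0.05, and the 3 that were lower compare with 2.09% of all genes. In OR3350 the *hif-1* transcript was also lower, at -0.43 ± 0.11 relative to *egl-9* (adjusted p = 0.00393) and -0.67 ± 0.11 relative to wild type (edgeR FDR 5.7e-08). The transcript of *egl-9*, a gene that HIF-1 activates, was at -0.96 ± 0.14 in OR3350 relative to *egl-9* mutants (adjusted p = 2.7e-10), and that of *unc-119* at -1.42 ± 0.17 (adjusted p = 7.0e-14). The source of HIF-1, its transcript level and *unc-119* all differ between these strains and cannot be told apart.

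Other members were higher than in wild type in both HIF-1-active genotypes and also in the double mutant. *btb-17* (chromosome II, 3295405 to 3296658) was 1.59 ± 0.25 higher (log2) in *egl-9* than in wild type (edgeR FDR 4.6e-09) and 1.31 ± 0.25 higher in OR3350 (FDR 4.9e-06). Against the double mutant its value of 0.39 ± 0.23 for *egl-9* (FDR 0.284) did not pass, nor did 0.11 ± 0.24 for OR3350 (FDR 0.875). Between the double mutant and wild type it differed by 1.20 ± 0.24 (approximate z test, adjusted p = 3.1e-05). Its neighbour *btb-16* (3296883 to 3298330) rose in *egl-9* by 1.99 ± 0.19 over wild type (FDR 8.5e-23), and was 0.66 ± 0.17 above the double mutant (FDR 0.00222). The *btb-16* difference between the double mutant and wild type was 1.33 ± 0.19 (adjusted p = 2.8e-10). In OR3350 *btb-16* was 1.11 ± 0.20 above wild type (FDR 8.5e-07) and at -0.22 ± 0.18 against the double mutant (FDR 0.474).

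*bath-26*, *math-37* and *btb-12* were also higher than in wild type in all 3 mutant genotypes. *bath-26* (chromosome II, 1599461 to 1600761) was 2.15 ± 0.32 higher (log2) in *egl-9* than in wild type (edgeR FDR 8.6e-10), 1.44 ± 0.34 higher in OR3350 (FDR 3.8e-04) and 1.82 ± 0.31 higher in the double mutant (approximate z test, adjusted p = 2.7e-07). *math-37* (2116884 to 2122191) stood at 3.43 ± 0.51 for *egl-9* (10.8-fold, FDR 8.1e-10), 2.22 ± 0.52 in OR3350 (FDR 3.2e-04) and 2.19 ± 0.48 in the double mutant (adjusted p = 1.9e-04), each against wild type. *btb-12* (1655217 to 1656229) was at 2.51 ± 0.49 in *egl-9* (FDR 4.1e-06), 1.82 ± 0.54 in OR3350 (FDR 0.00648) and 2.37 ± 0.45 in the double mutant (adjusted p = 9.3e-06), each against wild type. Against the double mutant, none of the 3 genes passed in *egl-9* or in OR3350 (FDR between 0.0291 and 1, edgeR). With *math-21* (1.40 ± 0.39, adjusted p = 0.00594), 7 members (7.87%) were higher in the double mutant than in wild type, against 4.81% of all genes, and *math-44* alone was lower, against 2.47%.

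**Figure D4:**
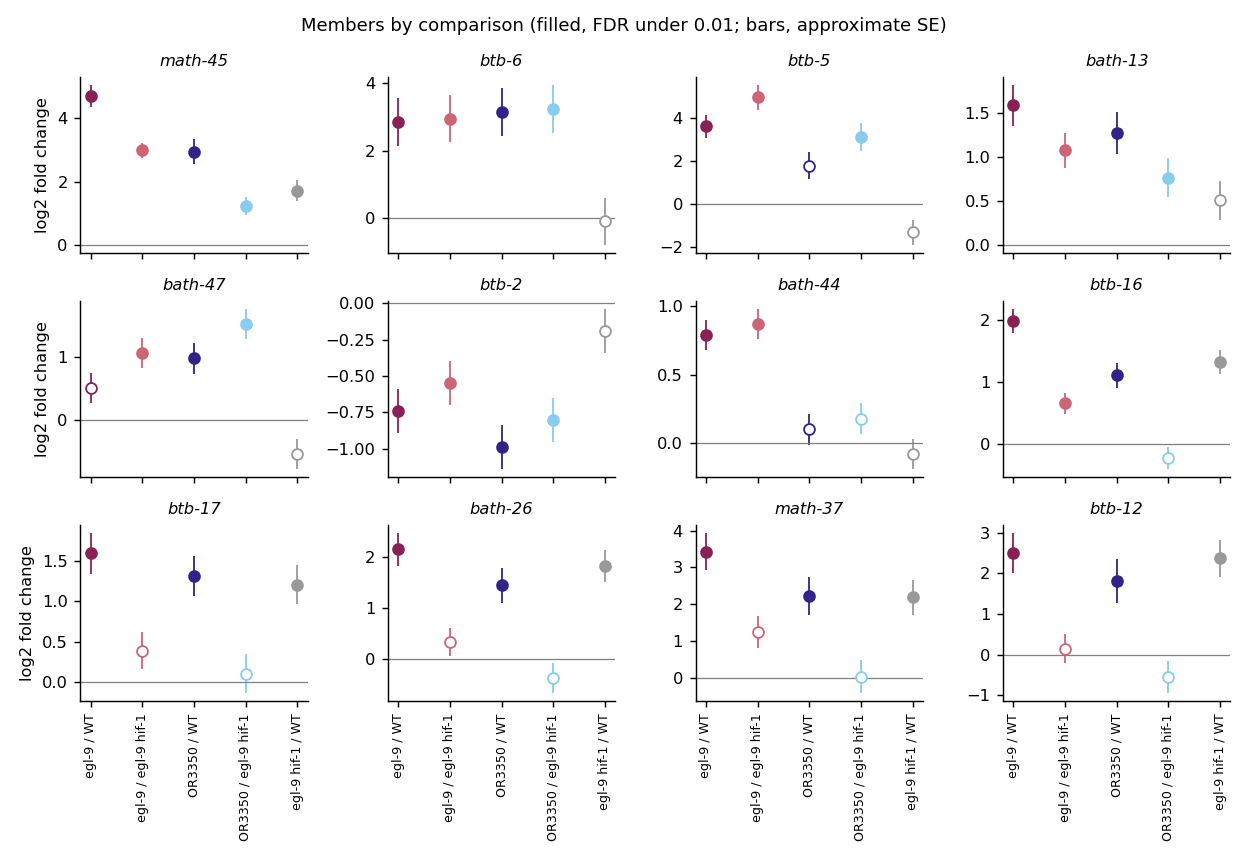
Log2 fold change with approximate SE for 12 of the members described, in the 4 deposited comparisons and in the double mutant against wild type, which was formed from them; WT is wild type and each panel has its own vertical scale. In *btb-16*, *btb-17*, *bath-26*, *math-37* and *btb-12* the grey point for the double mutant against wild type is filled (adjusted p under 0.01) and lies between 1.20 and 2.37.

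Markers of the epidermis moved with these comparisons against wild type. Of 6 epidermal genes, 4 (*bli-1*, *dpy-7*, *lin-26* and *rol-6*) were called higher in *egl-9*, in OR3350 and in the double mutant, each against wild type. The list medians were 1.94, 1.29 and 1.89 on the log2 scale, and 9.81%, 5.07% and 4.81% of all genes were called higher. Against the double mutant none of the 6 passed (edgeR, with 1 at an unadjusted p under 0.05 in *egl-9* and 0 in OR3350), and the list medians were 0.02 in *egl-9* and -0.16 in OR3350. The epidermal list had a mean log2 CPM of 3.11 to 10.58, and it includes cuticle collagen genes. The part of these genes in the rises of *btb-16*, *btb-17*, *bath-26*, *math-37* and *btb-12* was not tested.

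The remaining rises between *egl-9* and wild type were mostly smaller and mostly in bath- genes. *bath-46*, which overlaps *bath-26* by 28 bases on the other strand, was 1.31 ± 0.32 higher (log2) in *egl-9* than in wild type (2.48-fold, edgeR FDR 3.5e-04) and passed in no other table. Relative to wild type, *bath-24* was at 0.93 ± 0.17 in *egl-9* (FDR 6.3e-07) and at 0.58 ± 0.17 for OR3350 (FDR 0.00749), and it did not pass against the double mutant. *bath-19*, *bath-21*, *bath-27*, *bath-1*, *bath-36* and *btb-19* were called higher with log2 fold changes of 0.77, 0.70, 0.67, 0.58, 0.58 and 0.55 in *egl-9* against wild type. *bath-19* (0.68) and *btb-19* (0.60) were also called higher in *egl-9* against the double mutant. The annotated spans of *bath-21* and *bath-27*, introns included, overlap other protein-coding genes on the same strand by 942 and 1117 bases. How much of this is exon was not examined. *btb-8* was called at 4.23 ± 1.32 (FDR 0.00734) and *btb-11* in OR3350 against wild type at 5.29 ± 1.52 (FDR 0.00454), but their mean log2 CPM of -3.68 and -3.43 are near the lowest in the tables.

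Members called lower in *egl-9* against wild type were 5 of 37 math- and 3 of 16 btb- genes. Their share of the family (8.99%) was close to that of all genes (9.62%). *math-14* (chromosome II, 1869420 to 1870805) had the largest fall among members at a mean log2 CPM of 0 or more, at -2.05 ± 0.42 on the log2 scale against wild type (edgeR FDR 1.3e-05) and -1.49 ± 0.41 against the double mutant (FDR 0.00381). In OR3350 *math-14* did not pass, at -1.20 ± 0.41 against wild type (FDR 0.0239) and -0.64 ± 0.41 against the double mutant (FDR 0.321). *math-4* (1778772 to 1782574), with 833 residues, was at -1.31 ± 0.27 in *egl-9* against wild type (FDR 2.3e-05) and passed in no other table. *math-44* (1989310 to 1990535) fell relative to wild type: in *egl-9* (-0.96 ± 0.20, FDR 1.3e-05), in OR3350 (-0.72 ± 0.21, FDR 0.00421) and in the double mutant (-0.87 ± 0.20, approximate z test, adjusted p = 4.3e-04). Against the double mutant, *math-44* was at -0.09 in *egl-9* and 0.15 in OR3350, neither of which passed.

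Smaller or less expressed falls complete the group. *math-41* and *btb-14* fell by 0.59 ± 0.16 (edgeR FDR 0.00166) and 0.49 ± 0.13 (FDR 0.00113) as log2 fold changes of *egl-9* over wild type. *math-38*, with a mean log2 CPM of -0.21, was at -2.36 ± 0.50 in *egl-9* against wild type (FDR 3.1e-05). *math-10*, with a mean log2 CPM of -2.45, was called only in *egl-9* against the double mutant, at -2.23 ± 0.66 (FDR 0.0077). Markers of intestine fell beside them: 4 of 8 (*act-5*, *elt-2*, *ifb-2* and *vha-6*) were called lower in *egl-9* than in wild type, with a list median of -0.52 on the log2 scale and mean log2 CPM of 4.40 to 11.57. Muscle markers had 2 of 7 called lower (list median -0.45), neurons 2 of 8 (-0.20) and sperm 3 of 31 (-0.41) in the same comparison. Of all genes, 9.62% were called lower there, and the sperm count is close to that share. Their part in the falls of members was not tested, and in whole animals fewer cells of a type and less RNA per cell cannot be told apart.

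Along the chromosome II stretch, some adjacent members differed in their calls. *btb-17*, *btb-16* and *btb-18* follow each other on the plus strand, and their log2 fold changes in *egl-9* against wild type were 1.59 ± 0.25, 1.99 ± 0.19 and -1.49 ± 0.29 (edgeR FDR 6.5e-06 for *btb-18*). *btb-18*, with a mean log2 CPM of -0.81, was also lower in OR3350 than in wild type, at -1.31 ± 0.33 (FDR 8.7e-04). Its annotated span, introns included, shares 117 bases with that of *btb-16*, and how the authors assigned reads from shared bases is not given in the sources used here. Values of close tandem copies are uncertain for the same reason, since reads of near-identical paralogs may be split between them or lost. In the run *bath-46*, *bath-26*, *bath-47* and *bath-33*, *bath-26* stood at 2.15 in *egl-9* against wild type and 0.33 against the double mutant, whereas *bath-47* stood at 0.51 and 1.06. *math-45* (4.71) and *math-38* (-2.36) were called in opposite directions in *egl-9* against wild type. They follow each other among the members of this stretch but are not close, since *math-45* ends at 1517454 and *math-38* starts at 1577378. The bath- genes at 2014902 to 2045605 moved by less: *bath-21*, *bath-1*, *bath-19* and *bath-24* were called higher in *egl-9* against wild type, between 0.58 and 0.93, and *bath-3* (0.20) and *bath-5* (-0.15) among them were not called.

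**Figure D5:**
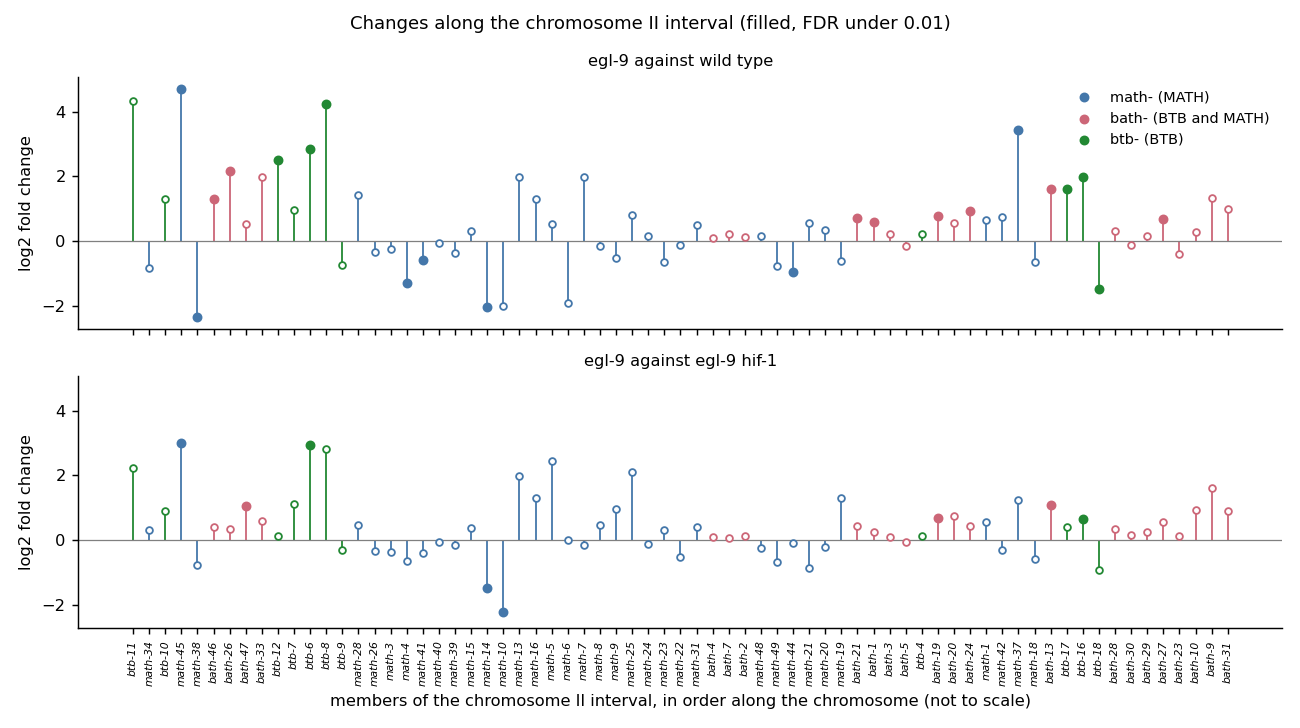
Log2 fold change in *egl-9* against wild type (top) and against the double mutant (bottom) for the 69 members of the chromosome II stretch, in their order along the chromosome and not to scale. Filled points passed an FDR under 0.01, and rises such as *math-45* (4.71 and 2.99) stand beside falls such as *math-38* (-2.36 in the upper plot).

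*bath-41*, *bath-34* and the adaptor gene *mel-26* were called only against the double mutant. Against wild type, *bath-34* was at 0.36 and 0.35 and *mel-26* at 0.36 and 0.44 in *egl-9* and OR3350 (edgeR FDR between 0.0127 and 0.163). The double mutant itself did not pass against wild type for these genes, at -0.24, -0.28 and -0.23 (approximate z test, adjusted p between 0.306 and 0.369). *bath-41* (chromosome III, 6720415 to 6722258) was 0.55 ± 0.15 higher (log2) in *egl-9* (edgeR FDR 0.00358) and 0.67 ± 0.15 higher in OR3350 (FDR 2.1e-04) than in the double mutant, and did not pass against wild type (0.31 and 0.43). *bath-34*, on chromosome I, was at 0.64 ± 0.16 (FDR 7.7e-04) and 0.63 ± 0.17 (FDR 0.00186) in the same comparisons with the double mutant. The katanin adaptor gene *mel-26* likewise stood above the double mutant, with 0.59 ± 0.14 for *egl-9* (FDR 3.8e-04) and 0.67 ± 0.14 for OR3350 (FDR 3.7e-05). Oocyte markers moved in the same comparisons: 2 of 7 (*oma-1* and *oma-2*) were called higher in *egl-9* and 6 of 7 in OR3350, each against the double mutant, with list medians of 1.08 and 1.28 on the log2 scale and mean log2 CPM of 6.39 to 8.74. Of 10 germ line markers, 1 was higher and 1 lower in *egl-9* and 2 were higher and 1 lower in OR3350, each against the double mutant. Of all genes, 5.57% were called higher and 4.19% lower in *egl-9*, and 5.72% higher and 6.24% lower in OR3350, in these comparisons. Against wild type the oocyte list medians were 0.68 in *egl-9* and 0.88 in OR3350, with *oma-2* called in both and 3 and 5 of 7 genes higher at an unadjusted p under 0.05. The shares of all genes called higher against wild type were 9.81% and 5.07%. Over the 4 tables *bath-47* stood at 0.51, 1.06, 0.98 and 1.53, beside oocyte medians of 0.68, 1.08, 0.88 and 1.28 (*egl-9* first and OR3350 after it, each against wild type and then against the double mutant). The part of oocyte transcripts in the rises of *bath-47*, *bath-34*, *bath-41* and *mel-26* was not tested.

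Of the 5 members with the highest mean log2 CPM, *bath-44* and *bath-41* were called in some table and the other 3 in none. *math-33*, on chromosome V from 11113907 to 11118824, encodes the ortholog of the deubiquitinase USP7 and acts on the insulin pathway factor DAF-16. Its log2 fold changes were -0.23 ± 0.12 and 0.01 ± 0.12 in *egl-9* against wild type and the double mutant, and -0.02 ± 0.12 and 0.22 ± 0.12 in OR3350 against the same genotypes (edgeR FDR between 0.136 and 1). *bath-42* lay between 0.03 and 0.39 over the 4 tables (FDR between 0.0107 and 0.956), and *bath-40* between 0.14 and 0.32 (FDR between 0.0381 and 0.49). Of the 57 members called in none of the 4 tables, 23 were bath-, 29 math- and 5 btb- genes. Among these, 28 had a mean log2 CPM at or above 0 and moved by at most 1.11 on the log2 scale, and 29 had lower means. Over the whole family, 22 of 37 math-, 9 of 36 bath- and 7 of 16 btb- genes had a mean log2 CPM below 0. The share of all genes called in none of the 4 tables is not given here, so the split by class stands without a background.

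*cul-3*, the gene for the cullin that BTB adaptors bind, was called in no table, while some of the genes listed with it here were higher. *cul-3* itself was between -0.05 and 0.13 on the log2 scale in the 4 tables, with an approximate SE of 0.12 (edgeR FDR between 0.524 and 1). Of 15 genes for CUL-3, RING proteins, NEDD8 conjugation, CAND1 exchange and the COP9 signalosome, 2 were called higher in *egl-9* against wild type (9.81% of all genes were), 4 in *egl-9* against the double mutant (5.57%), 2 in OR3350 against wild type (5.07%) and 3 in OR3350 against the double mutant (5.72%), and none was called lower (edgeR, with 0 lower at an unadjusted p under 0.05 in each table). The list medians were 0.07, 0.21, 0.12 and 0.24 in that order of tables. *ubc-12*, the NEDD8-conjugating enzyme, was called in each table, from 0.41 in OR3350 against wild type (FDR 0.00953) to 0.81 in *egl-9* against the double mutant (FDR 3.5e-09). *rbx-2*, which encodes a RING protein related to that of CUL-3 ligases, was 1.03 higher in *egl-9* than in wild type (FDR 4.2e-12). It was 0.53 higher in *egl-9* than in the double mutant (FDR 0.0011), but in OR3350 this difference was 0.10 (FDR 0.708). The double mutant itself stood 0.50 above wild type for *rbx-2* (approximate z test, adjusted p = 0.00425). *rbx-1*, the other RING gene of the list, lay between 0.08 and 0.27 and was called in no table (FDR between 0.108 and 0.779). Of 8 BTB genes with other names, *kel-20* rose (0.70, edgeR FDR 2.4e-06) in *egl-9* against wild type, where 9.81% of all genes were called higher. In the same comparison *kel-8* (-0.67, FDR 0.00824) and *kel-10* (-0.57, FDR 1.4e-04) fell, beside 9.62% of all genes. In OR3350 *kel-10* was also lower, at -0.79 against wild type (FDR 8.2e-08) and -0.48 against the double mutant (FDR 0.0027). *kel-20* and *kel-8* passed in neither OR3350 table. *eor-1* and *mel-26* were higher than in the double mutant in both *egl-9* and OR3350, beside 5.57% and 5.72% of all genes. The SPOP ortholog gene *spop-1*, which also encodes a MATH and BTB protein, lay between -0.02 and 0.09 over the 4 tables and passed in none.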

How the data were processed

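Poly(A) RNA was sequenced from whole L4-stage animals as single-end reads of 50 nucleotides, with 4 libraries per genotype. Per the methods, the authors used STAR 2.5.1a for alignment to WS245 and for gene counts, and the authors ran the model and its tests in edgeR. The authors' edgeR version, strand setting and rule for shared reads are not given in the sources used here. Only the authors' comparisons are in the deposited tables used here, so these columns were used as deposited and credited to them: the authors' log2 fold changes and mean log2 CPM, their likelihood ratio score with 1 degree of freedom, and their p-values and FDR. No library's own counts were used here, so depth and the spread between libraries could not be examined. Libraries came from either of 2 sequencing providers, and which handled which is not given in the sources used here, so provider and genotype cannot be told apart. The tables close to within 4.9e-08 on the log2 scale, and the FDR recomputed from the p-values gave the same calls.

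Symbols and positions came from the WormBase name table and the WBcel235 annotation. Levels between genes were compared per kilobase of exon. Subtracting deposited fold changes gave 2 further differences, that of the double mutant from wild type and that of OR3350 from *egl-9*, with the mean squared SE of the 4 tables, a two-sided approximate z test and Benjamini-Hochberg adjustment over all genes. Python 3.11.15, scipy 1.17.1, pandas 2.3.3 and numpy 2.4.6 were used. These steps were tested on simulated data.

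The members and lists were chosen with earlier results of these data known. Members were named if called in the same direction in both tables of a pair with no genotype in common, if among the 8 largest rises or falls in *egl-9* against wild type at a mean log2 CPM of at least 0, if called in opposite directions, if among the 5 with the highest mean log2 CPM, if among the 5 largest in each direction in a derived difference, or if known from earlier work (*math-33*, *bath-42*). Other members named (*bath-1*, *bath-3*, *bath-5*, *bath-19*, *bath-21*, *bath-27*, *bath-33*, *bath-34*, *bath-36*, *btb-8*, *btb-11*, *btb-18*, *btb-19*, *math-10* and *math-38*) were chosen after their values were seen. Lists of marker genes for sperm, oocyte, germ line, intestine, muscle, neurons and epidermis were described by counts and medians.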

Additional observations from a re-analysis of the deposited data

Results flagged for a closer look

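For 3 members the level in OR3350, the strain with the transgene, differed from that in the *egl-9* mutant by the test of the difference itself. The difference between OR3350 and *egl-9* was -1.76 on the log2 scale for *math-45* (log2 fold changes of 2.95 in OR3350 and 4.71 in *egl-9*, each against wild type), -0.88 for *btb-16* (1.11 in OR3350 and 1.99 in *egl-9*) and -0.68 for *bath-44* (0.10 in OR3350 and 0.79 in *egl-9*). The adjusted p were 6.6e-06, 1.8e-04 and 3.4e-08 (approximate z test over all genes). The double mutant, without HIF-1, itself stood 1.72 above wild type for *math-45* and 1.33 for *btb-16*, and against it *btb-16* was at -0.22 in OR3350.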

How the results depend on the processing

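No paired analysis was possible because the tables carry no values per library, and for the same reason leaving out a replicate was not run. Counts of members called (higher, lower) moved by over 1.5 times as follows. The shares of all genes called under these other settings are not given here, so these counts stand without a background. At an FDR under 0.05 there were 19 higher and 6 lower in *egl-9* against the double mutant, 17 and 6 in OR3350 against wild type, 12 and 3 in OR3350 against the double mutant, and 3 lower in the double mutant against wild type, with 11 higher and 3 lower in both of *egl-9* against the double mutant and OR3350 against wild type. At an FDR under 0.001, *egl-9* against the double mutant gave 7 higher and 0 lower, and that pair 0 lower. With genes at or above a mean log2 CPM of 0, which keeps 51 of the 89 members, the double mutant against wild type gave 4 higher and 2 lower. At a mean of at least 1 it gave 2 and 2, *egl-9* against wild type 11 and 5, *egl-9* against the double mutant 6 and 1, and OR3350 4 higher against wild type and 3 higher against the double mutant. Both minimums leave out members and adjust over fewer genes, which added *btb-14* to the lower calls of the double mutant against wild type and *bath-42* to the higher calls of OR3350 against the double mutant. With an absolute log2 fold change of at least 1, *egl-9* against wild type gave 11 and 4, *egl-9* against the double mutant 5 higher, OR3350 against wild type 1 lower, OR3350 against the double mutant 4 higher and 0 lower, the double mutant against wild type 0 lower and OR3350 against *egl-9* 1 lower. With Bonferroni adjustment, *egl-9* against wild type gave 10 and 0, *egl-9* against the double mutant 4 and 0, OR3350 against wild type 4 and 1, OR3350 against the double mutant 1 higher, and the double mutant against wild type 4 and 0. No direction of a named member reversed, but only centring alters a log2 fold change, so no other setting could reverse one. Centring on the median gene, which lay between -0.06 and -0.01, changed no count or call. Every member is annotated as protein-coding, so keeping only protein-coding members left out none. Among values of named members, 31 calls ended under Bonferroni adjustment, including all 4 of *btb-6*, 20 with an absolute log2 fold change of at least 1, 11 at an FDR under 0.001 and 1 with the largest SE of the 4 tables, and 13 were gained at an FDR under 0.05.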
